A study of Sus scrofa with 14 samples.

Results

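Fatty acid and triglyceride synthesis was read in the knee meniscus, a fibrocartilage pad, of male Wuzhishan pigs through 6 genes: FASN, ACACA, SCD, SREBF1, DGAT2 and AGPAT1. These are 6 of the 2389 genes that could be named on the array, and they were read by every non-control probe whose RefSeq accession belongs to one of their transcripts, 20 probes of 43603: 3 for FASN, 9 for SCD and 2 for each of the other 4 genes. All 20 passed the filter on dim probes, which kept 38823. In the osteoarthritis group (OA, 7 pigs) the anterior cruciate ligament had been operated on 24 weeks earlier, and in the sham group (7 pigs) a sham operation lay 24 weeks back; the labels give an age of 6 to 7 months for all animals and name no drug, diet or genetic difference between the groups. Surgery on the ligament is a model of osteoarthritis after joint injury, and each array held RNA of whole meniscus tissue, so that fewer cells of a type and less RNA per cell cannot be told apart. FASN and AGPAT1 were chosen for their change in OA and because their probes disagree; their group values are therefore a description and carry no test. The 14 pigs were assigned to the groups at random, per the design text, and 14 samples carry the group labels. The other 4 genes were chosen as partners in the pathway, with earlier results of these data known.

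Fat synthesis begins in the cytosol. Acetyl-CoA carboxylase, the product of ACACA, makes malonyl-CoA, and fatty acid synthase, the product of FASN, extends it into palmitate. The desaturase SCD places a double bond in the finished chain. AGPAT1 attaches an acyl chain to lysophosphatidic acid to make phosphatidic acid, the common precursor of phospholipids and triglycerides, and DGAT2 adds the last acyl chain of a triglyceride. SREBF1 encodes a membrane-bound transcription factor that is cleaved when lipid runs low and then switches on FASN, ACACA and SCD. Fat tissue and liver are the best known sites of this pathway, and the fat pad beside the meniscus is rich in adipocytes.

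Arrays of the groups differed before any gene was considered. The raw 75th percentile of the signal was 156 to 491 on OA arrays and 417 to 618 on sham arrays, and 68.0% to 89.4% of probes were well above background on OA arrays, against 89.8% to 95.2% on sham arrays. By the scan times in the headers, OA 1 belonged to scan 3, OA 2 to OA 5 to scan 4, OA 6 and OA 7 to scan 5, sham 1 to sham 4 to scan 1 and sham 5 to sham 7 to scan 2. No scan held both groups, so that scan and surgery cannot be told apart in any value below. The raw 75th percentile was 225 on OA 1, 156 to 250 in scan 4, and 403 and 491 in scan 5. A fit without scan 4 therefore also changes the brightness of the OA arrays that are kept. Signals are given as a percentage of the 75th percentile of their own array. The median of that percentile was 225 in OA and 585 in sham. A probe of equal processed signal on 2 such arrays thus has a higher scaled value in OA. Changes are on the log2 scale, OA minus sham. Of 17 listed fibrocartilage genes 6 were measured, among them ACAN, the aggrecan core protein, DCN, decorin, and SOX9, the chondrocyte transcription factor. All 6 were well above background on all 14 arrays. The same held for 27750 of all 43603 probes, so that this does not check the tissue label.

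**Figure D1:**
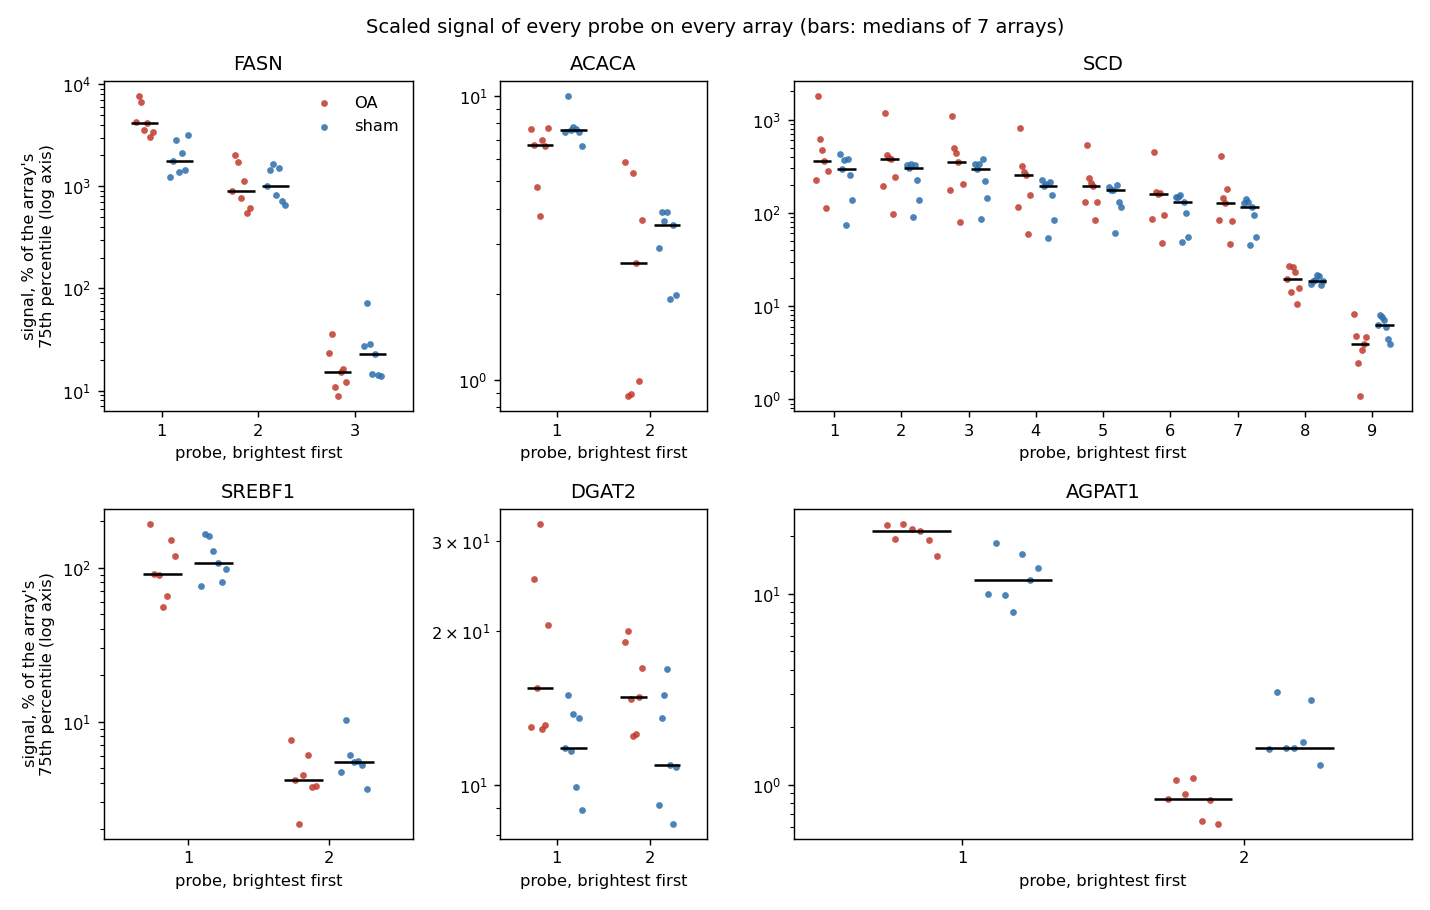
Scaled signal, as a percentage of the array's 75th percentile on log axes, of each of the 20 probes on each of the 14 arrays, with probes numbered by mean signal within a gene; points are arrays, OA left of sham, and bars are medians of 7 arrays. FASN 1 and AGPAT1 1 lay higher in OA, AGPAT1 2 lay lower, and the 7 bright SCD probes spread widely in both groups.

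The threshold of an adjusted p under 0.05 was passed by 3 of the 20 probes, FASN 1 and AGPAT1 1 higher and AGPAT1 2 lower in OA, against 3.73% of all probes tested (2.88% higher and 0.853% lower). Since these 3 belong to the genes chosen for their change, nothing is read from that count. Of the 15 probes of ACACA, SCD, SREBF1 and DGAT2, 0 passed (limma, Benjamini-Hochberg over all probes). An unadjusted p under 0.05 was found for 3 of the 15, a share of 20.0%, against 19.6% of all probes. Their median change was 0.39, against -0.05 over all tested probes, but 9 of the 15 are probes of SCD. By gene, the median over its probes was -0.40 for ACACA, 0.40 for SCD, -0.27 for SREBF1 and 0.49 for DGAT2. In the fits that left out 1 array, AGPAT1 1 no longer passed without sham 1, sham 3, sham 4, sham 6, sham 7 or any of OA 2 to OA 6, which left 1 higher probe in each of those 10 fits, and without scan 4, an alternative chosen after seeing the data, 0 of the 20 passed.

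FASN, the synthase itself, differed between the groups by one probe and not by the others. FASN 1 (probe A_72_P175196, mean processed signal 10590) ranged from 3069% to 7642% of the 75th percentile with a median of 4200% in OA, against 1218% to 3161% with a median of 1768% in sham. Of the 7 OA arrays, 6 exceeded the highest sham array, and the exception was OA 6 at 3069%, just under sham 7 at 3161%. The change was 1.24 ± 0.26 (SE, n = 7 per group), a 2.36-fold difference. Within OA the 2 arrays of scan 5 were the lowest, at 3069% and 3428%, and those of scan 4 ranged from 3572% to 7642%. Without scan 4 the change was 0.92. Before scaling, the processed signal of FASN 1 ranged from 5558 to 16830 in OA and from 7239 to 14960 in sham.

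The other FASN probes did not share this difference, although all 3 carry the same RefSeq accession. FASN 2 (A_72_P223177, signal 3728) ranged from 550% to 2013% with a median of 900.5% in OA, against 652% to 1654% with a median of 1000% in sham, and the groups overlapped widely. Its change was -0.08 ± 0.31. FASN 3 (A_72_P647699, signal 70.1) ranged from 8.82% to 35.8% in OA and from 14.0% to 71.3% in sham, with medians of 15.2% and 23.0% and a change of -0.56 ± 0.37. The 3 changes of FASN thus spanned 1.80 log2 units. Over the 1212 genes with at least 2 tested probes this span had a median of 0.45, and the span of FASN was at percentile 98.3; FASN was chosen for this disagreement and a span grows with the number of probes, so nothing is read from that rank. Probes with opposite signs were common, at 54.3% of these genes.

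The disagreement of FASN 1 and FASN 2 can be read on each array, where the scaling cancels. The log2 difference, FASN 1 minus FASN 2, was 2.17 ± 0.25 in OA and 0.84 ± 0.69 in sham (SD, n = 7 each). It ran from 1.91 to 2.48 on OA arrays and from 0.28 to 1.03 on 6 sham arrays, while sham 7 stood at 2.28, within the OA range. OA 1, OA 6 and OA 7, which were in scans 3 and 5, gave 2.23, 2.48 and 2.47, and these scans also held OA arrays only. Every OA array lay above 6 of the 7 sham arrays in this difference. FASN was chosen for probes that disagree, so nothing is read from that. The place of each probe in the transcript was not analysed here.

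Within OA, FASN 1 and FASN 2 followed each other closely. Pearson's r over the 7 OA arrays was 0.978 and Spearman's rho 0.964 (exact permutation p = 0.00040 and 0.0028, adjusted over 75 probe pairs p = 0.0019 and 0.010), and r was 0.942 without the 2 arrays farthest from the median. Over the 7 sham arrays r was 0.188 and rho 0.107 (exact permutation p = 0.66 and 0.84, adjusted p = 0.70 and 0.88), and 0.753 without the 2 farthest arrays. That the relation differed between the groups was not tested. For FASN 1 and FASN 3 r was 0.462 and rho 0.321 in OA, and -0.0402 and -0.143 in sham (exact permutation adjusted p = 0.39 and 0.63 in OA, 0.97 and 0.84 in sham), and r was 0.396 in OA and 0.338 in sham without the 2 farthest arrays. OA 2 and OA 3 gave the highest values of FASN 1 and FASN 2 alike.

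**Figure D2:**
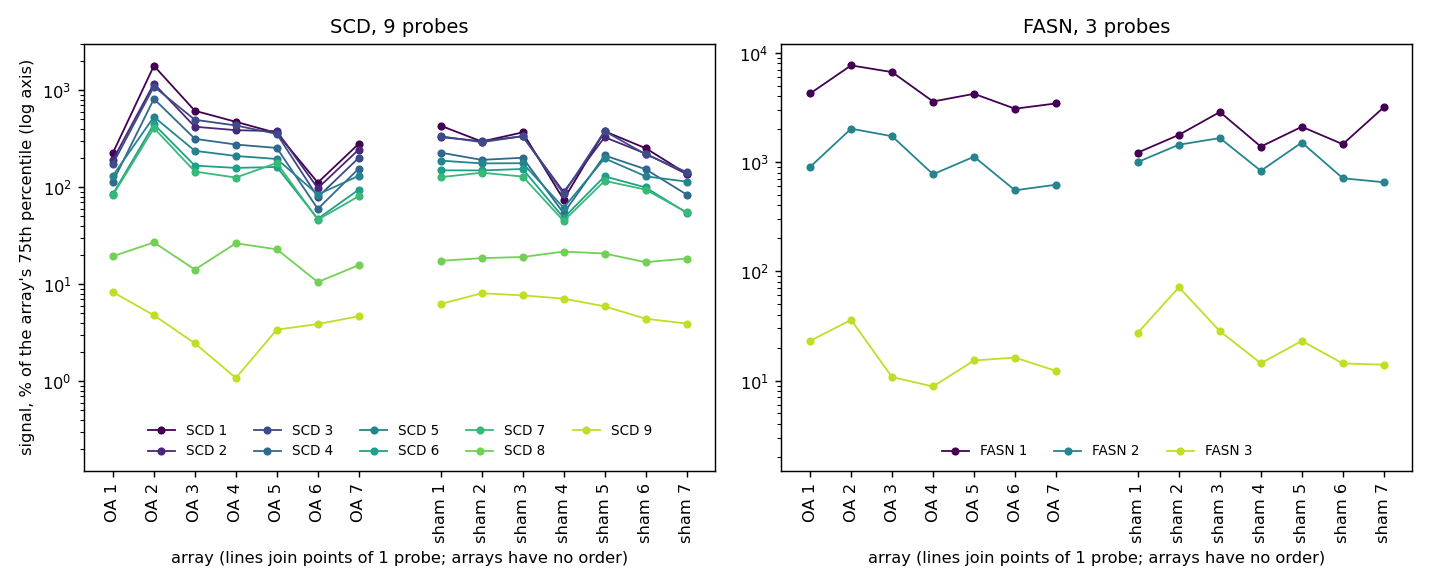
Scaled signal (percentage of the array's 75th percentile, log axes) of the 9 SCD probes and the 3 FASN probes on the 7 OA and 7 sham arrays; a line joins the points of 1 probe within a group, and arrays have no order. SCD 1 to SCD 7 move together from array to array with a peak at OA 2, SCD 8 peaks at OA 2 as well but is nearly level over the sham arrays, SCD 9 is highest at OA 1, and the gap between FASN 1 and FASN 2 is wider on OA arrays and on sham 7.

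ACACA, which supplies FASN with malonyl-CoA, did not pass by either probe. ACACA 1 (A_72_P442314, signal 25.3) ranged from 3.77% to 7.70% with a median of 6.73% in OA, where 6 of 7 arrays were well above background, against 6.65% to 9.99% with a median of 7.56% in sham. All 7 OA arrays lay below the sham mean, but the groups overlapped. Its change was -0.33 ± 0.18 with a 95% interval of -0.72 to 0.05 (limma adjusted p = 0.33). ACACA 2 (A_72_P305844, signal 9.35) was well above background on 2 of 7 OA arrays and on all sham arrays, so that its change of -0.46 ± 0.44 (limma adjusted p = 0.60) rests largely on OA values at the background. With normexp background correction both changes were positive, at 0.56 and 0.73, and passed (limma adjusted p = 0.0043 and 0.0021), where the median over all probes had moved to 0.34. Under that correction 17569 of all 38823 tested probes passed as higher.

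SCD had the most probes and the widest spread. SCD 1 to SCD 7 (mean signals 1121 down to 393), were well above background on all 14 arrays and had changes of 0.38 to 0.69 with SE of 0.36 to 0.52, and 0 of the 7 passed (limma adjusted p = 0.49 to 0.69). SCD 1 (A_72_P088586) ranged from 112% to 1787% with a median of 363% in OA, against 74.6% to 431% with a median of 296% in sham. OA 2 was the highest array at 1787%, the next OA array stood at 614%, and the lowest OA array, OA 6 at 112%, lay within the sham range. The 95% interval of SCD 1 ran from -0.40 to 1.79 and spanned 0. The positive sign rested on the arrays of scan 4: without them the 7 probes had changes of -0.31 to -0.71, and SCD 1 stood at -0.32.

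SCD 1 to SCD 7 gave one pattern across samples, a grouping made after the values were seen. Of all SCD pairs tested, those that passed by Pearson's r in each group were the 21 among these 7 probes (exact permutation, adjusted over the 75 probe pairs of all members), with r from 0.954 to 0.997 over the 7 OA arrays and from 0.909 to 0.995 over the 7 sham arrays. Spearman's rho ran from 0.857 to 1 in OA and from 0.643 to 1 in sham, and 17 and 11 of the 21 pairs passed by it. Without the 2 arrays farthest from the median r ran from 0.704 to 0.997 in OA and from 0.500 to 0.967 in sham. For comparison, the median r over all pairs of probes of 1 gene was 0.735 in OA and 0.824 in sham, and over pairs of different genes 0.0414 and 0.0245. The pattern had OA 2 as its high point and OA 6 as its low point in OA, and sham 4 as its low point in sham.

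The spread of SCD 1 was 16.0-fold between the lowest and highest OA array and 5.77-fold between the lowest and highest sham array. Its SD was 1.25 in OA and 0.92 in sham, at percentile 97.1 of all tested probes in OA and percentile 95.4 in sham, against a median SD of 0.48 and 0.38. FASN 1 varied 2.49-fold within OA and 2.60-fold within sham, and AGPAT1 1 varied 1.48-fold and 2.32-fold. The spread differed between probes of 1 gene: FASN 3 varied 4.06-fold within OA and 5.11-fold within sham, and SCD 8 varied 2.57-fold and 1.29-fold. SCD 8 (A_72_P586661, signal 68.7) and SCD 9 (A_72_P558694, signal 16.9) were in 0 of the pairs that passed. In sham their r with any other SCD probe ran from -0.461 to 0.459 over 15 pairs, but from 0.365 to 0.963 without the 2 farthest arrays, so that the low values rest on those arrays. In OA, where SCD 9 was well above background on 3 of 7 arrays and left out, 0 of the 7 pairs with SCD 8 passed, at r of 0.679 to 0.757, close to the median for probes of 1 gene, and of -0.0755 to 0.282 without the 2 farthest arrays. Like the other 7, SCD 8 was highest at OA 2 and lowest at OA 6 in OA. SCD 8 changed by -0.03 ± 0.21 and SCD 9 by -0.78 ± 0.34 (limma adjusted p = 0.95 and 0.22).

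SREBF1, the transcription factor of the pathway, did not pass by either probe. SREBF1 1 (A_72_P326973, signal 389) ranged from 55.7% to 193% with a median of 91.3% in OA, against 76.3% to 166% with a median of 107% in sham. OA 1 was the highest array and OA 4 the lowest, and the sham arrays lay between them. The change was -0.16 ± 0.28 with a 95% interval of -0.75 to 0.43 (limma adjusted p = 0.79), and without scan 4 it was 0.43. SREBF1 2 (A_72_P223967, signal 17.9) was well above background on 4 of 7 OA arrays and on all sham arrays and changed by -0.38 ± 0.26 (limma adjusted p = 0.45). The labels give RNA only, so the cleaved, active form of the factor was not analysed here.

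DGAT2, the last enzyme of triglyceride synthesis, had probes alike in sign and size. DGAT2 1 (A_72_P288804, signal 53.5) ranged from 12.9% to 32.5% with a median of 15.5% in OA, against 8.93% to 15.0% with a median of 11.8% in sham. DGAT2 2 (A_72_P564909, signal 49.7) ranged from 12.5% to 20.0% with a median of 14.9% in OA, against 8.40% to 16.8% with a median of 10.95% in sham. On both probes all 7 OA arrays lay above the sham mean, and the groups overlapped. Before scaling, the processed signal of DGAT2 1 ranged from 29.2 to 101 in OA and from 42.3 to 83.7 in sham. That of DGAT2 2 ranged from 19.4 to 83.4 in OA and from 51.3 to 102 in sham. The changes were 0.58 ± 0.23 and 0.41 ± 0.19, and the 95% intervals ran from 0.10 to 1.06 and from 0.0047 to 0.81. Neither passed over all probes (limma adjusted p = 0.16 and 0.25). The sign stayed positive for both probes in all 27 alternatives, from 0.35 to 0.72 for DGAT2 1 and from 0.32 to 0.70 for DGAT2 2. With normexp background correction both passed, at 0.72 and 0.70 (limma adjusted p = 0.0012 and 0.0010), where the median over all probes was 0.34 and 17569 of all 38823 tested probes passed as higher. From array to array r between the probes was -0.0146 and rho 0 in OA, and 0.261 and 0.250 in sham (exact permutation adjusted p = 0.98 and 1 in OA, 0.61 and 0.73 in sham), and r was 0.269 in OA and 0.123 in sham without the 2 farthest arrays.

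The probes of AGPAT1 had fitted changes of opposite sign, but the sign of AGPAT1 2 rests on OA values at the background. AGPAT1 1 (A_72_P763838, signal 57.6) ranged from 15.7% to 23.2% with a median of 21.2% in OA, against 8.002% to 18.5% with a median of 11.8% in sham. Of the 7 OA arrays, 6 exceeded the highest sham array, and OA 7 at 15.7% did not. The change was 0.75 ± 0.19 (SE, n = 7 per group), a 1.68-fold difference. Without scan 4 it was 0.65. Before scaling, the processed signal of AGPAT1 1 ranged from 33.8 to 77.2 in OA and from 46.2 to 94.9 in sham.

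AGPAT1 2 (A_72_P088656, signal 4.54) ranged from 0.625% to 1.08% in OA, against 1.27% to 3.07% in sham, and all 7 OA arrays lay below all 7 sham arrays. Among all tested probes 0.157% had every OA array below every sham array; AGPAT1 was chosen on this contrast, so nothing is read from it. The probe was well above background on 0 OA arrays and on 7 sham arrays. Its fitted change of -1.13 ± 0.22 is therefore no size. With OA set at the lowest signal that counted as well above background on each OA array, the OA mean lay 1.12-fold below the sham mean. On the log2 scale that OA mean was -5.935, and sham 1, sham 3, sham 4 and sham 7 lay below it, at -6.30 to -6.00. It is therefore no firm lower limit on a difference. In the authors' table, which holds quantile-normalized values, the change was -0.30, and with normexp background correction it was 0.71. The log2 difference between the probes on the same array, AGPAT1 1 minus AGPAT1 2, was 4.60 ± 0.28 in OA and 2.73 ± 0.48 in sham (SD, n = 7 each), with no overlap, and it rests on the same OA values at the background.

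**Figure D3:**
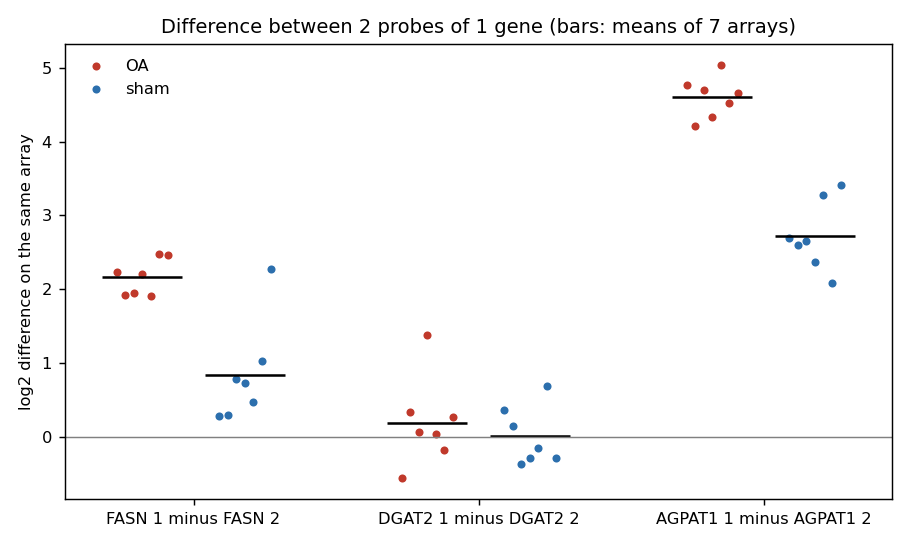
Log2 difference between a pair of probes of 1 gene on the same array, for FASN, DGAT2 and AGPAT1; points are arrays, OA left of sham, and bars are means of 7 arrays. The height of a difference depends on the probes and has no meaning of its own, and its shift between groups was 1.32 for FASN, with sham 7 among the OA arrays, and 0.17 for DGAT2. FASN and AGPAT1 were chosen for probes that disagree, and the AGPAT1 shift of 1.88 has no size because AGPAT1 2 was well above background on 0 OA arrays.

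The settings moved some members more than others. Both DGAT2 probes stayed positive in all 27 alternatives, whereas SCD 1 to SCD 7 turned negative without scan 4. FASN 1 and AGPAT1 1 also stayed positive in all 27, but their genes were chosen for their change on these arrays, so nothing is read from that. FASN 3, ACACA 1, ACACA 2, SCD 8, SCD 9, SREBF1 2 and AGPAT1 2 turned positive with normexp background correction. Under that setting ACACA 1, ACACA 2, SCD 9 and SREBF1 2 passed as higher, as did 17569 of all 38823 tested probes, so that nothing is read from these calls. With the scan as a random block, FASN 1 stood at 1.18 ± 0.34 and AGPAT1 1 at 0.73 ± 0.25, and 0 member probes passed.

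**Figure D4:**
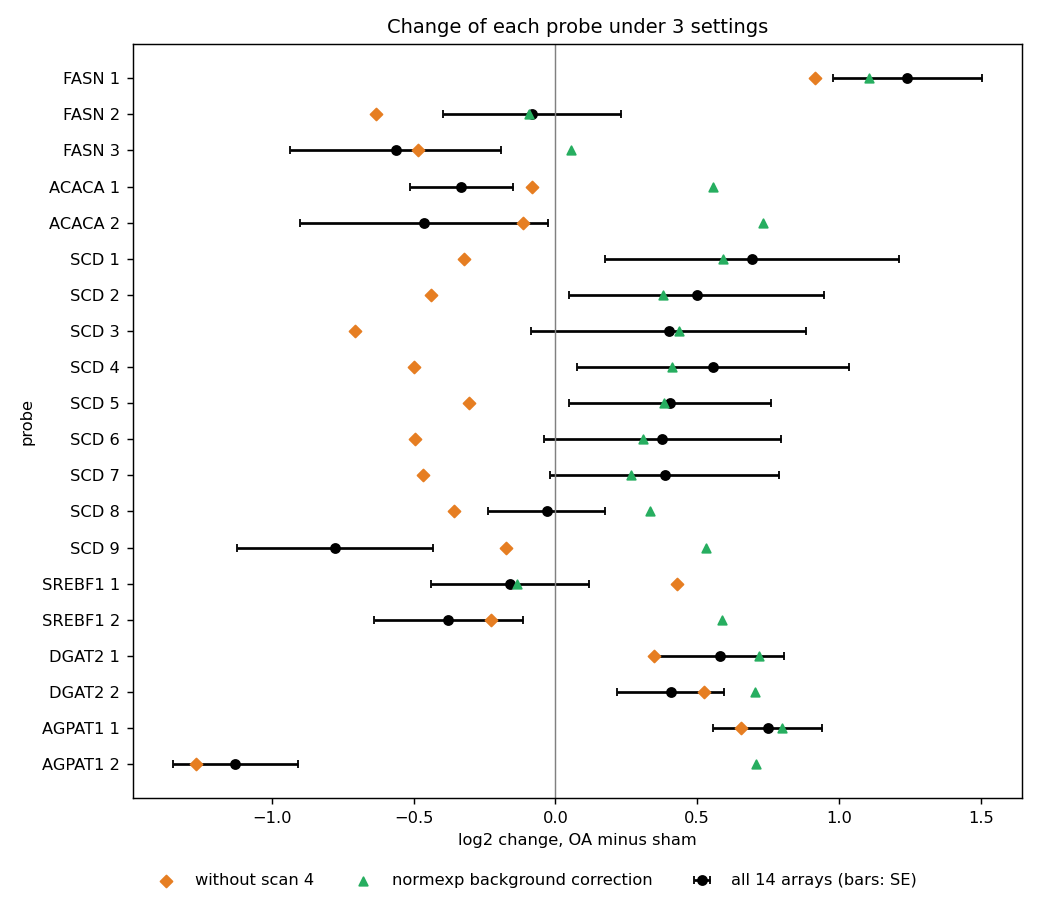
Log2 change, OA minus sham, of the 20 probes with all 14 arrays (black points, bars are SE), without the 4 arrays of scan 4 (orange) and with normexp background correction (green). The SCD 1 to SCD 7 points lie right of 0 with all arrays and left of it without scan 4, while FASN 1, DGAT2 1, DGAT2 2 and AGPAT1 1 lie right of 0 under all 3 settings. FASN and AGPAT1 were chosen for their change in OA.

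Relations of the members with each other, with fat cell markers and with array brightness were read within each group, over the first-numbered probe of FASN, SCD, SREBF1, DGAT2 and AGPAT1. This set of 40 relations was chosen after seeing the data, and 0 of them passed after adjustment. FASN 1 and SCD 1 gave r of 0.860 and rho of 0.750 over the 7 OA arrays (exact permutation p = 0.0071 and 0.066, adjusted p = 0.29 and 0.67), 0.513 without the 2 farthest arrays, and r of 0.0162 over the 7 sham arrays. AGPAT1 1 and the raw brightness of the array gave r of -0.808 and rho of -0.750 in OA (exact permutation p = 0.024 and 0.066, adjusted p = 0.32 and 0.67), and r of -0.0644 without the 2 farthest arrays. With brightness in OA, r was -0.544 for FASN 1, -0.600 for SCD 1, 0.517 for SREBF1 1 and -0.364 for DGAT2 1. Over the 7 sham arrays it was -0.620, -0.132, -0.688 and -0.00034 in that order, and -0.507 for AGPAT1 1.

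Markers of fat tissue were read beside the members because adipocytes make fatty acids and triglycerides. Of 16 adipocyte markers 13 were tested, and their summed signal was 1484% to 7902% with a median of 3184% in OA, against 1244% to 3118% with a median of 2370% in sham. One of the 13, LEP, the hormone leptin, rose by 0.74 ± 0.16 (limma adjusted p = 0.020), where 2.97% of all named genes were called higher, although its other probe gave -0.34. The call of LEP was lost with the scan or the scan day as a random block (limma adjusted p = 0.17 and 0.10). ADIPOQ, adiponectin, stood at -0.18 ± 0.27 and FABP4, the fatty acid binding protein of fat cells, at 0.73 ± 0.63, and both were well above background on all 14 arrays. PLIN1, the coat protein of fat cell lipid droplets, was well above background on 2 OA arrays and on 0 sham arrays and was not tested. LIPE, hormone-sensitive lipase, stood at 1.04 ± 0.48 (limma adjusted p = 0.25). Over the 7 OA arrays the adipocyte sum gave r of 0.257 and rho of 0.0714 with FASN 1 (exact permutation p = 0.60 and 0.91, adjusted p = 0.84 and 0.91), and r of -0.473 without the 2 farthest arrays. With DGAT2 1 it gave r of 0.612 and rho of 0.714 (exact permutation p = 0.15 and 0.088, adjusted p = 0.56 and 0.67), and r of 0.949 without the 2 farthest arrays. Over the 7 sham arrays the sign was the opposite for DGAT2 1, with r of -0.322 and rho of -0.286 (exact permutation p = 0.48 and 0.56, adjusted p = 0.79 and 0.87), and r of 0.701 without the 2 farthest arrays. The relation of largest size with the adipocyte sum was that of SREBF1 1 in sham, with r of -0.815 and rho of -0.857 (exact permutation p = 0.024 for both, adjusted p = 0.32 and 0.67), and r of -0.516 without the 2 farthest arrays. Of the 13 changes 10 were positive, and the 13 had a median of 0.22, against 0.003 over all 2258 named genes tested.

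Other tissues gave the following values. Of 14 tested skeletal muscle genes 2 rose, MYOD1, a transcription factor of muscle commitment, by 1.44 ± 0.24 and TNNI1, slow troponin I, by 0.71 ± 0.18 (limma adjusted p = 0.0070 and 0.041), where 2.97% of all named genes were called higher. With the scan as a random block neither passed (limma adjusted p = 0.075 and 0.21), and with the scan day as a block TNNI1 did not (0.14). The call of TNNI1 was lost in 11 of 14 refits with 1 array fewer, all but those without sham 3, OA 1 or OA 7. Without scan 4, LEP, MYOD1 and TNNI1 did not pass (limma adjusted p = 0.13, 0.11 and 0.22). The summed muscle signal was 1284% to 2575% in OA and 1389% to 4285% in sham. None of 5 macrophage genes passed, with CD14 at -0.45 ± 0.24 and LYZ at 0.89 ± 0.68 (limma adjusted p = 0.33 and 0.50; 0 had an unadjusted p under 0.05), and their sum was 3494% to 6402% in OA and 1410% to 7061% in sham. None of the 6 fibrocartilage genes passed either, with 0 at an unadjusted p under 0.05; TNMD, a tendon membrane protein, stood at 0.85 ± 0.74 and SPARC, a matrix glycoprotein, at 0.25 ± 0.25. Of the 6 changes 4 were positive, and the other two were SOX9 at -0.43 ± 0.46 and HAPLN1, the link protein of cartilage, at -0.31 ± 0.45. Their part in the values of the lipid genes was not tested.

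The rest of the pathway was read through 53 further genes in 5 lists, 1 probe each. PNPLA3, a lipid droplet acyltransferase and lipase, rose, and 0 genes fell, so that 1 of the 53 passed. Among all named genes 3.23% passed, 2.97% higher and 0.266% lower in OA. An unadjusted p under 0.05 was found for 8 of the 53, against 19.6% of all probes. That share was not computed for named genes read by 1 probe each. Positive changes numbered 25 of the 53, against 50.4% of named genes, and the median change was -0.01, against 0.003.

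PNPLA3 was separated between the groups. Its probe with the highest mean signal (64.2) ranged from 20.3% to 35.0% with a median of 21.9% in OA, against 11.6% to 13.6% with a median of 12.99% in sham, and all 7 OA arrays lay above all 7 sham arrays, as they did for 1.57% of all probes. The change was 0.92 ± 0.15 (limma adjusted p = 0.0070). A further probe with a signal of 56.3 gave 0.93 ± 0.29 (limma adjusted p = 0.088), and another, well above background on 2 of 7 OA arrays, gave -0.22 ± 0.26. The call held in 24 of 27 alternatives and in each of the 14 refits with 1 array fewer. It was lost with the scan as a random block (0.90 ± 0.20, limma adjusted p = 0.086) and without scan 4 (0.77) or without scans 3 and 4 (0.71; limma adjusted p = 0.058 and 0.13). With the mean of all probes of a gene in place of 1 probe, 0 of the 53 genes passed.

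None of the other genes of fatty acid synthesis and desaturation passed, of 5 tested. ACLY, which makes the acetyl-CoA for the pathway, stood at -0.10 ± 0.15, ACSS2, an acetyl-CoA synthetase, at -0.18 ± 0.18, FADS1 and FADS2, desaturases of polyunsaturated fatty acids, at -0.01 ± 0.22 and -0.23 ± 0.25, and SCD5, a relative of SCD, at 0.21 ± 0.28 (limma adjusted p = 0.60 to 0.98; 0 of the 5 had an unadjusted p under 0.05). ACLY was well above background on all 14 arrays, and 0 of its 3 probes had a positive change.

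In triglyceride and phosphatidate synthesis 19 genes were tested. The relatives of AGPAT1 were AGPAT2 at -0.18 ± 0.23, AGPAT3 at -0.01 ± 0.16, AGPAT4 at -0.79 ± 0.35 and AGPAT5 at -0.09 ± 0.25. A positive change was found for 0 of the 8 probes of these 4 genes, against 44.9% of all tested probes. The family was named after its values were seen, so nothing is read from that count. The smallest limma adjusted p was 0.22, for AGPAT4. DGAT1, which catalyses the same step as DGAT2, stood at -0.10 ± 0.23, and GPAT4, which adds the first acyl chain, at -0.16 ± 0.24. The lipins, which remove the phosphate from phosphatidic acid, stood at -0.59 ± 0.28 (LPIN1), -0.32 ± 0.18 (LPIN2) and 0.18 ± 0.23 (LPIN3). ACSL1, which activates long-chain fatty acids, stood at -0.58 ± 0.22 (limma adjusted p = 0.15). Its relatives stood at -0.06 ± 0.20 (ACSL3), 0.25 ± 0.31 (ACSL4) and 0.18 ± 0.32 (ACSL5). Of the 19 genes 8 had a positive change, against 50.4% of named genes. Whether AGPAT1 or DGAT2 differed from these relatives was not tested.

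Of 10 regulators of lipid synthesis 0 passed, and 2 had an unadjusted p under 0.05, a share near the 19.6% of all probes. NFYB, a subunit of the factor NF-Y that acts beside SREBF proteins, stood at -0.67 ± 0.21 with none of its 4 probes positive (limma adjusted p = 0.092). PPARA, a factor that switches on fatty acid oxidation, stood at 0.76 ± 0.24 (limma adjusted p = 0.084) but was well above background on 3 OA and 6 sham arrays. SCAP, the escort of SREBF proteins to the Golgi, stood at 0.28 ± 0.21, INSIG2, which retains them in the endoplasmic reticulum, at -0.06 ± 0.17, and PPARGC1A, a coactivator of mitochondrial genes, at 0.28 ± 0.17.

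Of 5 sterol synthesis genes, which SREBF proteins also control, 0 passed and 0 had an unadjusted p under 0.05. PMVK, phosphomevalonate kinase, stood at -0.36 ± 0.18, and FDPS, farnesyl diphosphate synthase, at -0.12 ± 0.39. Of 14 genes of lipid uptake, storage and lipolysis 0 passed and 3 had an unadjusted p under 0.05, likewise near that share. These were LIPE, given above, PNPLA2, the first lipase of triglyceride breakdown, at -0.83 ± 0.33, and PLIN3, a lipid droplet coat protein, at -0.70 ± 0.30 (limma adjusted p = 0.17 to 0.25). PNPLA2 was well above background on 2 OA arrays and on 7 sham arrays.

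**Figure D5:**
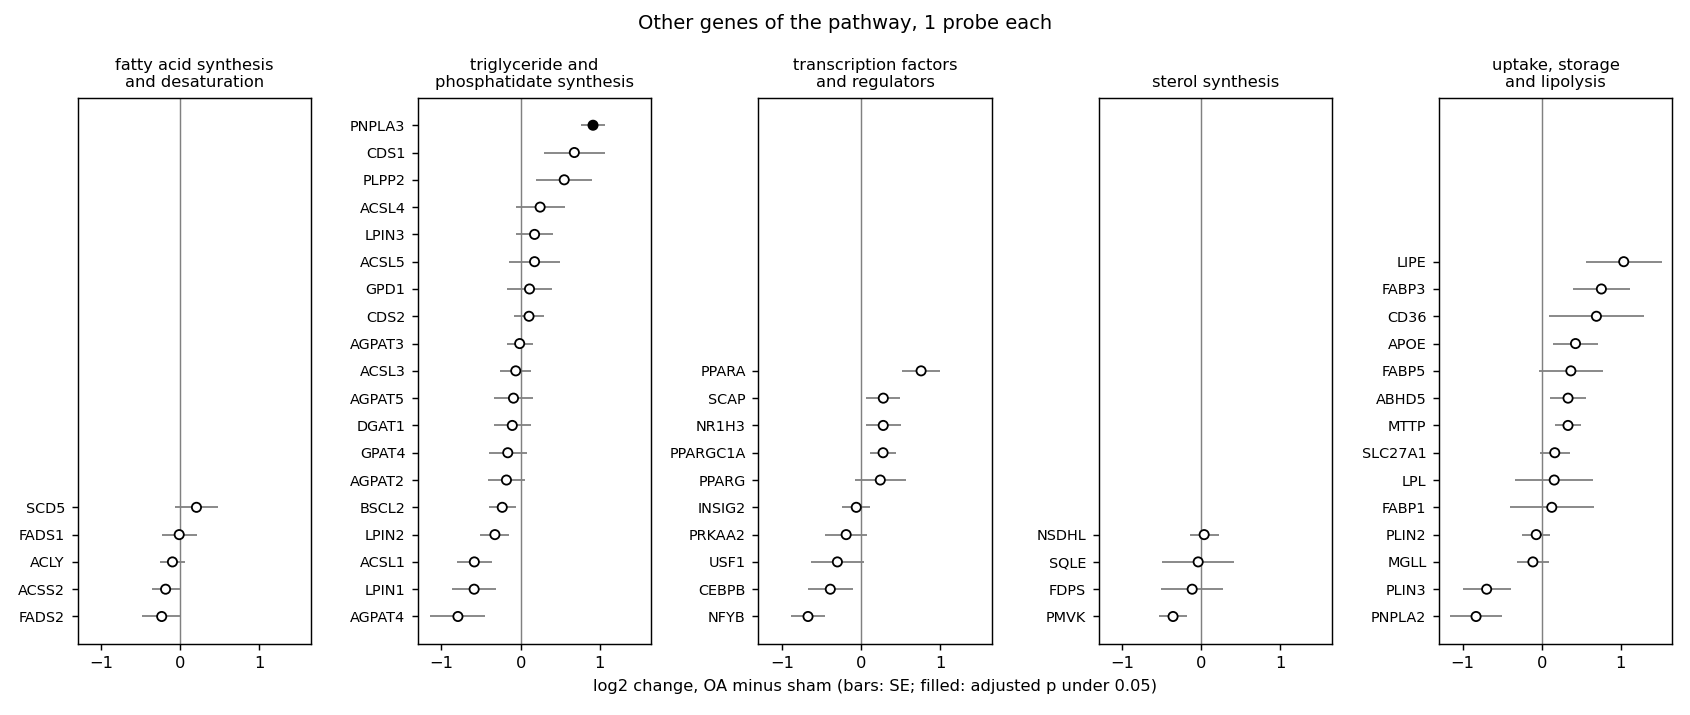
Log2 change, OA minus sham, of 52 of the 53 other pathway genes in 5 lists, each read by its brightest probe (bars are SE; a filled point has an adjusted p under 0.05 by limma). PNPLA3 is the 1 filled point, and the genes of fatty acid and sterol synthesis lie between -0.36 and 0.21.

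The genes most like FASN 1 across animals were found by ranking 2256 named genes on Pearson's r of their deviations from the group means over the 14 arrays, a ranking without a test. They were CCR10, a chemokine receptor, at 0.931, COL5A1, a chain of type V collagen, at 0.929, TPI1, the glycolytic triosephosphate isomerase, at 0.912, HCRTR2, an orexin receptor, at 0.910, and SLC52A2, a riboflavin transporter, at 0.908. Within OA alone their r ran from 0.909 to 0.981 and within sham alone from 0.860 to 0.979. None of the pathway genes and no fat cell marker was among these 5. Such genes are few among the 2256, so that their absence was likely in advance and nothing is read from it. The 5 most like AGPAT1 1 were CDC42EP3, an effector of the GTPase CDC42, PFKM, muscle phosphofructokinase, KCNA2, a potassium channel, FASTK, a mitochondrial RNA regulator, and BMP15, an oocyte growth factor, at 0.800 to 0.861. For these 5 genes r ran from 0.512 to 0.779 within OA alone and from 0.882 to 0.931 within sham alone. All these points share the arrays and their scaling.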

How the data were processed

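Expression was measured on 14 single-colour Cy3 arrays. The deposited intensity values are the processed signals of Agilent's scanner software (Feature Extraction, version 11.0.1.1), per the file headers, after background subtraction and detrending within an array; they were not normalized between arrays. The authors' table holds log2 values with shared quantiles, a median of 5.993 on each array and a Spearman rho of 0.994 to 1 with the same array's signal; it was therefore taken as quantile-normalized, uncentred and running with the signal, and it served as an alternative. The sources used here do not say how it was made.

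Processed signals were log2-transformed, the log2 of each array's 75th percentile over non-control spots was subtracted, 82 spots marked as outliers were set missing (0 among the members), and spots of 1 probe were averaged. No spot was saturated. A probe was kept where at least 7 of the 14 arrays had it well above background, and a moderated linear model (limma 3.58.1, R 4.3.3) was fitted (two-sided, Benjamini-Hochberg over all 38823 probes, threshold 0.05). In simulated data with the same spread, 32% of probes changed by 1 log2 unit and 91% of those changed by 2 were recovered, with 3 false calls. The simulated arrays were independent and had no scan effect. In the data the scan as a random block gave a correlation of 0.23 within scans, and no scan held both groups. The simulated rates therefore do not give the false calls or the recovery in these data. Names came from matching RefSeq accessions without version to the Sscrofa11.1 gene table: 5461 of 5779 probes with such an accession matched, giving 2389 genes, and probes with other identifiers stayed unnamed. No coordinates are given because the sources used here name no build for the array design. Outside the members, a gene is read from its probe with the highest mean signal; Mean signals are geometric means over 14 arrays, in arbitrary units, and the number of arrays limits precision. The lowest signal well above background on each OA array, or the probe's own if higher, gave the OA mean of -5.935 that was set against sham for AGPAT1 2.

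The members, the 5 pathway lists and the 4 marker lists were chosen with earlier results of these data known. Named genes were all member probes, list genes past the threshold or otherwise the 3 (marker lists: 2) with the smallest p, and the 5 genes most like FASN 1 and AGPAT1 1. Outside this rule fell ACLY, FADS1, DGAT1, GPAT4, SCAP, INSIG2, ADIPOQ, FABP4, PLIN1, SOX9, HAPLN1 and the AGPAT, lipin and ACSL families. They were named after their values were seen. The alternatives were other scalings, normexp with an offset of 50, other filters, marked spots kept, the authors' table, trended and robust variance, blocks for replicate number, scan and scan day, the mean of all probes of a gene, and arrays left out; leaving out scan 4 or scans 3 and 4, and the 40 relations, were chosen after seeing the data. The scanner files hold median but no mean spot signals, so normexp used the medians in place of the planned means. "Scan" stands for arrays with 1 scan time. The 5 scans fell on 3 days. No 2 arrays were identical. The values of 1 sterol synthesis gene are not reported here; it stays in the counts.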

Additional observations from a re-analysis of the deposited data

Results flagged for a closer look

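A single sample far from the rest of its group was found once in 40 sets of 7 arrays (20 probes in 2 groups), where chance alone gives about 1 in 20. On ACACA 1, sham 2 stood at a log2 scaled value of -3.32, or 9.99% of its array's 75th percentile, while the other 6 sham arrays lay between 6.65% and 7.78%; the gap made up 0.613 of the range of the group. Left out, it moved no call of this probe.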

How the results depend on the processing

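With normexp the median change of all probes moved to 0.336, against -0.05, and the calls to 17569 higher and 789 lower, against 1119 and 331. Calls were 1569 higher and 676 lower with quantile normalization, 1385 and 784 with median scaling, 1509 and 747 in the authors' table, and 18 and 0 with the scan as a random block; the cause was not tested. Member probes higher in OA, 2 as reported, numbered 9 with normexp and 0 with scan or scan day as a block, without scan 4 and without scans 3 and 4; they ranged from 1 to 2 when 1 array was left out. Member probes lower in OA, 1 as reported, numbered 0 with normexp, in the authors' table, with scan or scan day as a block, without scan 4, without scans 3 and 4, and with the filter on all arrays, which removed the probe. Pathway genes higher in OA, 1 as reported, numbered 2 with quantile normalization, 14 with normexp, 0 with the scan as a block, without scan 4, without scans 3 and 4 and with the mean of all probes, and 1 to 2 with 1 array left out (2 without OA 5). Pathway genes lower in OA, 0 as reported, numbered 1 with normexp and 0 to 1 with 1 array left out (1 without OA 6). With the replicate number as a block 1 member probe was higher, and LEP and TNNI1 did not pass (limma adjusted p = 0.081 and 0.12); samples of the same number correlated from -0.192 to 0.275 in their deviations, so that the numbers do not pair them.

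Signs turned under normexp for FASN 3 (0.054), ACACA 1 (0.56), ACACA 2 (0.73), SCD 8 (0.33), SCD 9 (0.53), SREBF1 2 (0.59) and AGPAT1 2 (0.71); relative to the median of all probes FASN 3 (-0.28) and SCD 8 (-0.003) stayed at or below 0. Without scan 4, SCD 1 to SCD 7 stood at -0.32, -0.44, -0.71, -0.50, -0.31, -0.50 and -0.47 and SREBF1 1 at 0.43. Without scans 3 and 4 they stood at -0.44, -0.54, -0.86, -0.58, -0.42, -0.61 and -0.61, and SREBF1 1 at 0.25. With 1 array left out, FASN 2 ranged from -0.26 to 0.057 and SCD 8 from -0.12 to 0.11. The cause of these turns was not tested. The lower signal over background on OA arrays limits ACACA 2, SCD 9, SREBF1 2 and AGPAT1 2 most.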
